A study of Mus musculus with 6 samples.

Results

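The 10 genes described here encode enzymes and 1 helper protein of the prostaglandin and leukotriene routes: Ptgs1, Ptgs2, Ptges, Hpgds, Hpgd, Alox5, Alox5ap, Alox15, Ltc4s and Lta4h. They were chosen by name for their place in the pathway and were found by matching the 54446 Ensembl gene IDs of the count table to Gencode symbols, which gave 1 row for each of the 10. RNA had been sequenced from bone marrow-derived macrophages (BMDMs) of BALB/c mice 6 to 8 weeks old, grown from marrow for 7 days with 20% L929-conditioned medium. BMDMs were left unpolarized (M0), given IFN-γ at 20 ng/mL with LPS at 50 ng/mL (M1) or given IL4 at 20 ng/mL (M2) for 24 hours, and each state was sequenced without and with regorafenib, a multikinase inhibitor, added at 1 µM 1 hour before the polarizing agents. The labels call the untreated libraries control, and their protocol names DMSO. There was 1 library per condition and 6 libraries in all, and the number of mice behind a library is not given in the sources used here.

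Prostaglandins and leukotrienes are lipid mediators made from arachidonic acid, which phospholipases release from membranes. Cyclooxygenases (Ptgs1 and the inducible Ptgs2) turn it into prostaglandin H2, from which terminal synthases make prostaglandin E2 (Ptges) or prostaglandin D2 (Hpgds), and 15-hydroxyprostaglandin dehydrogenase (Hpgd) inactivates prostaglandins. On the other branch, 5-lipoxygenase (Alox5) with its activating protein (Alox5ap) makes leukotriene A4, which Lta4h turns into leukotriene B4 and Ltc4s into leukotriene C4. Macrophages are known as a source of both kinds of mediator and of a strong Ptgs2 response to bacterial products.

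RefSeq promoter windows on GRCm38.p6 (250 bases before the start to 50 after it) were at hand for 8 of the 10 genes, Alox5ap and Alox15 being the others. The windows of 4 genes are printed to show the patterns the text turns on: Ptgs2 and Ptges, which were high in M1, Ptgs1, the isoenzyme that was low there, and Hpgd, which was counted mainly with regorafenib. They lie at chr1:150099781-150100080, + strand (Ptgs2), chr2:30903248-30903547, - strand (Ptges), chr2:36230176-36230475, + strand (Ptgs1) and chr8:56294302-56294601, + strand (Hpgd), and are written 5′ to 3′ on the gene’s strand. The RefSeq start of Ptges lies inside the span that Gencode gives the gene. Capitals mark letters that match a motif searched on both strands.
Ptgs2: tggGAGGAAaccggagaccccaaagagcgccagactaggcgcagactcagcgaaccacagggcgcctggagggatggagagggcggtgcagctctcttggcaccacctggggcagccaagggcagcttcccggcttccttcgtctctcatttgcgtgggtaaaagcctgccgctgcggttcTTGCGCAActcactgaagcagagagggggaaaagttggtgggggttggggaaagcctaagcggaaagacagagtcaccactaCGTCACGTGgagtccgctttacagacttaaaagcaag
Ptges: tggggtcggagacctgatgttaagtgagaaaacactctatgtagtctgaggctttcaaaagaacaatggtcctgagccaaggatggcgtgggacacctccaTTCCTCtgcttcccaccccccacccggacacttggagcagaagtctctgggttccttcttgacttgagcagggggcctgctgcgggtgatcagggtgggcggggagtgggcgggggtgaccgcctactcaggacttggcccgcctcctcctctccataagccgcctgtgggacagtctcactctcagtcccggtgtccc
Ptgs1: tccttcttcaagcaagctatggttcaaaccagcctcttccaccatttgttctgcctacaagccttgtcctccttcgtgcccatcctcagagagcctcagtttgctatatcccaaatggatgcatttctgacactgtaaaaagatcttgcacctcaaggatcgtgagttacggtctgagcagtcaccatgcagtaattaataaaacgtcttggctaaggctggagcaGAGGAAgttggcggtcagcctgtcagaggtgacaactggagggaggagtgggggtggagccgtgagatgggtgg
Hpgd: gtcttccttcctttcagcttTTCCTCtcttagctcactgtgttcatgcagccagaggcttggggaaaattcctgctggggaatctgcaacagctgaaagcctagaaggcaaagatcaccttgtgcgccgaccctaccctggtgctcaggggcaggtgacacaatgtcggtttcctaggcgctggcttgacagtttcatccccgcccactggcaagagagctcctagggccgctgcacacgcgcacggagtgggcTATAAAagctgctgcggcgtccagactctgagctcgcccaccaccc

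The motifs were chosen after the sequences had been seen, and a match describes letters only. The Ptgs2 window held the C/EBP palindrome TTGCGCAA at bases -69 to -62 from the start, a word found in 0.183% of 32851 promoter windows. It also held the short form of the cAMP response element, TGACG, at 14 to 18, on the other strand, which is in 20.8% of windows. It overlapped the E-box CACGTG at 17 to 22, which is in 7.15%. The 3 other printed windows held none of these. The word GAGGAA, a core bound by the macrophage factor PU.1, was in all 8 windows of the set and in 28.3% of all windows. TATAAA was found at 5 to 10 from the RefSeq start in Hpgd only, against 13.6% of windows. The Gencode start of Hpgd, base 56294585, lies after this word, so by that start the word is upstream of the gene. The full element TGACGTCA (1.79% of windows), the NF-kB letters GGGNNTTCC (5.82%) and the STAT letters TTCNNNGAA (8.30%) were in 0 of the 8.

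The libraries held between 25359309 and 34898342 counts, and the values below are read counts as deposited unless another scale is named. CPM are counts scaled to a common library size with TMM, and RPKM, a level per length, are CPM divided by the kilobases of annotated exon. The marker lists followed the labels: 8 macrophage markers summed to between 21869 and 48726 CPM in every library. M1 markers reached 18902 and 13095 CPM in M1 and at most 2.14 CPM elsewhere, and M2 markers reached 1352 and 652 CPM in M2 and at most 33.8 CPM elsewhere. Members of a list differed in direction with regorafenib. In M1, Nos2 (410649 and 221627 counts) and Cd38 (14614 and 11532) were lower. Il12b (10147 and 26829), Cxcl9 (15565 and 16548) and Il6 (37404 and 39074) were higher there. In M2, Arg1 (21798 and 1017), Mrc1 (24237 and 12895) and Mgl2 (2017 and 305) were lower. Retnla (941 and 3348) and Chil3 (379 and 675) were higher in M2. Of 9 mast cell and basophil markers, 7 were at 0 in every library, among them Cpa3 and Fcer1a. The other two, Hdc and Kit, were counted mainly in M1, where the list summed to 5.07 and 15.3 CPM. The eosinophil marker Epx and the neutrophil marker Ly6g were at 0 in all 6 libraries, and the 5 eosinophil markers together stayed between 0.581 and 9.34 CPM. Within that list, M2 without and with regorafenib had 80 and 233 counts of Siglecf and 261 and 28 of Ccr3. Neutrophil markers summed to 84.8 and 158 CPM in M0 without and with regorafenib, 88.8 and 132 CPM in M2, and 157 and 110 CPM in M1, with most counts outside M1 from Mpo. Fibroblast markers summed to between 1.69 and 6.58 CPM. Dendritic cell markers reached 32.0 and 38.8 CPM in M1 and at most 2.79 CPM elsewhere. Most of the M1 counts of this list were from Ccr7 (780 and 827), then Xcr1 (36 and 102). Its other members, Zbtb46, Flt3, Cd209a and Clec9a, had at most 9 counts in M1. The part of any such other cells in the results was not tested. In bulk RNA, fewer cells of a type and less RNA per cell cannot be told apart.

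In each library the genes were ordered by RPKM, a level per length. Alox5ap stood first in the 4 libraries of M0 and M2, at 343 and 260 RPKM in M0 and 365 and 204 RPKM in M2. Ptgs2 stood first in M1, at 2559 and 2889 RPKM, followed by Ptges at 156 and 148 RPKM and by Alox5ap at 88.5 and 69.5 RPKM. Outside M1, Ptgs2 stayed between 0.457 and 1.52 RPKM and Ptges between 0.543 and 1.03 RPKM, while Hpgds lay between 16.1 and 31.5 RPKM and Ptgs1 between 14.8 and 28.6 RPKM. Alox5 and Hpgds were neighbours in M0 control, at 27.3 and 26.4 RPKM, and Ptgs1 and Ltc4s in M0 with regorafenib, at 17.6 and 17.4 RPKM. Without a second library per condition, the order of such close neighbours has no replicate check. Alox15, the 12/15-lipoxygenase, stood last or, in M0 control, next above Hpgd. It had 4 counts in M0 control, 1 in M0 with regorafenib and 0 in the 4 polarized libraries.

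**Figure D1:**
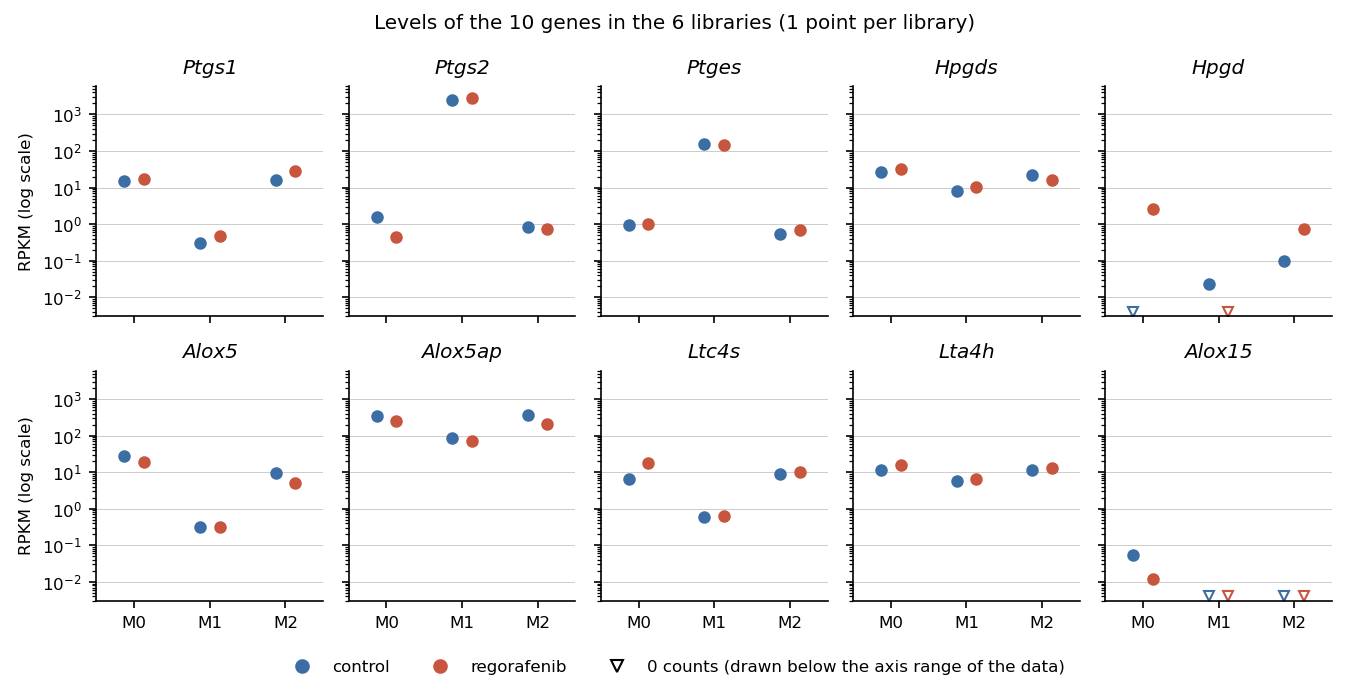
Level of each of the 10 genes (RPKM on a log axis) in M0, M1 and M2, with 1 point per library, blue for control and red for regorafenib, and open triangles for libraries with 0 counts. Ptgs2 (2559 and 2889 RPKM) and Ptges (156 and 148 RPKM) stand far above their other libraries in M1, where Ptgs1, Alox5 and Ltc4s are at their lowest.

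The first question is how the genes differed between states without regorafenib. Set against M0, M1 held far more RNA of the inducible prostaglandin E2 pair, Ptgs2 and Ptges, and less of Ptgs1, Hpgds and 3 of the leukotriene genes, Alox5, Alox5ap and Ltc4s. A gene is called higher or lower here when its ratio was at least 2-fold, its 95% interval excluded 0 on the log2 scale and a library of the pair held at least 10 counts. The interval is the exact binomial interval of both counts and covers counting error only. With 1 library a side there is no replicate check and no p-value. Of the 10 genes, 8 had enough counts in this pair, and 2 were called higher and 5 lower, against 16.7% of 14168 genes called higher and 18.7% called lower. The median log2 ratio of the 8 was -1.85, and that of all genes tested -0.05. The M0 control library is shared by the comparisons of M1 and of M2.

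The cyclooxygenases came first. Ptgs2 (ENSMUSG00000032487.8, GRCm38 chr1:150100031-150108227, + strand) had 214 and 69 counts in M0 without and with regorafenib, 142 and 95 in M2, and 302844 and 318861 in M1. Both M1 libraries stood far above the other 4, of which the M0 control was highest. Without regorafenib M1 was 1682-fold above M0, a log2 ratio of 10.72 (95% interval 10.52 to 10.92). Ptgs1 (ENSMUSG00000047250.13, chr2:36230426-36252272, + strand), the constitutive isoenzyme, had 1770 and 2247 counts in M0, 2307 and 3104 in M2, and 30 and 43 in M1. M1 stood apart in the opposite direction, 49.6-fold below M0 in the control libraries (log2 -5.63, -6.21 to -5.11). With 1 CPM added to both values the log2 ratio of Ptgs1 was -4.76. Of the RPKM of both isoenzymes together, Ptgs2 took 9.30% and 2.54% in M0, 4.96% and 2.53% in M2, and 99.99% and 99.98% in M1.

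The terminal synthases showed the same split. Ptges (ENSMUSG00000050737.13, chr2:30889471-30929863, - strand), the inducible microsomal prostaglandin E synthase, had 113 and 134 counts in M0, 78 and 75 in M2, and 15891 and 13998 in M1. It was 167-fold higher in M1 than in M0 (log2 7.39, 7.12 to 7.67), with the 4 other libraries close together. Hpgds (ENSMUSG00000029919.5, chr6:65117293-65144908, - strand), the hematopoietic prostaglandin D synthase, had 5218 and 6670 counts in M0, 5081 and 2899 in M2, and 1317 and 1592 in M1. M1 was lowest, 3.33-fold below M0 without regorafenib (log2 -1.74, -1.82 to -1.65). Between the 2 synthases, Ptges took 2.45% to 4.06% of their summed RPKM in M0 and M2 and 95.2% and 93.5% in M1.

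Among the leukotriene genes, Alox5 had the largest difference between states. Alox5 (ENSMUSG00000025701.12, chr6:116410077-116461178, - strand) had 3439 and 2659 counts in M0, 1430 and 569 in M2, and 33 and 31 in M1, so that the states did not overlap. It was 87.7-fold lower in M1 than in M0 (log2 -6.45, -6.99 to -5.96), and with 1 CPM added to both values the log2 ratio was -5.63. Alox5ap (ENSMUSG00000060063.9, chr5:149264767-149288153, + strand), which presents arachidonic acid to Alox5, had 14976 and 12157 counts in M0, 18934 and 8110 in M2, and 3246 and 2378 in M1. Here M1 was 3.88-fold below M0 (log2 -1.96, -2.01 to -1.90), a smaller difference than for the enzyme it assists.

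The 2 enzymes downstream of leukotriene A4 were unlike each other. Ltc4s (ENSMUSG00000020377.15, chr11:50236461-50238616, - strand) had 205 and 580 counts in M0, 321 and 283 in M2, and 16 and 16 in M1. It was 10.8-fold lower in M1 than in M0 (log2 -3.43, -4.26 to -2.70), and with 1 CPM added to both values the log2 ratio was -2.24. Of its 100-base words, 6.86% also lie in the antisense gene Gm26542, which had 2 to 19 counts. Lta4h (ENSMUSG00000015889.8, chr10:93453411-93484875, + strand) had 2178 and 3100 counts in M0, 2556 and 2284 in M2, and 925 and 932 in M1. Its log2 ratio of M1 to M0, -0.99 (-1.10 to -0.87), lay just inside the 2-fold limit and was -1.43 when libraries were scaled by total counts. That scaling moved the median of all genes in this pair by -0.44 and left 29.4% of all calls on the higher side, where TMM left 47.2%.

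Hpgd (ENSMUSG00000031613.9, chr8:56294585-56321043, + strand) had 0 and 148 counts in M0, 6 and 34 in M2, and 1 and 0 in M1. Without regorafenib it had at most 6 counts in a library, and no fold of M1 to M0 can be given. Alox15 never reached 10 counts, and no fold of it is read. IL4 raises Alox15 in some macrophages, and here its counts were 0 in both M2 libraries, where 3 counts of the library are the limit that a count of 0 allows.

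Fewer of the genes were called in M2 against M0. Of 8 genes with enough counts, 0 were called higher and 1 lower, against 3.8% and 6.98% of 13830 genes, and the median log2 ratio was -0.15 (all genes 0.01). The 1 gene was Alox5, 2.86-fold lower in M2 (log2 -1.52, -1.61 to -1.43). Ptgs2 (-0.84, -1.16 to -0.53) and Ptges (-0.78, -1.22 to -0.35) lay below 0 within the 2-fold limit. Ltc4s (0.40, 0.14 to 0.66) and Ptgs1 (0.13, 0.04 to 0.22) lay above 0 within it. Alox5ap (0.09, 0.06 to 0.12) and Lta4h (-0.02, -0.10 to 0.06) were close to 0, and both turned sign under another scaling. Hpgds had a log2 ratio of -0.29 (-0.34 to -0.23).

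The same differences were taken between the libraries with regorafenib, as values only. M1 against M0 gave a log2 ratio of 12.63 (12.29 to 12.99) for Ptgs2, which is 6321-fold, and of 7.16 (6.91 to 7.42) for Ptges. On the lower side were Alox5 (-5.97), Ptgs1 (-5.26), Ltc4s (-4.73), Alox5ap (-1.90), Hpgds (-1.62) and Lta4h (-1.28). The direction of each was that of the control libraries. Hpgd was at least 36.1-fold lower in M1 than in M0 with regorafenib, against the floor of 3 counts in the M1 library. M2 against M0 with regorafenib gave -1.99 (-2.12 to -1.86) for Alox5 and -1.89 (-2.47 to -1.34) for Hpgd. Hpgd in the control libraries had 6 counts in M2 and 0 in M0, the other direction. The ratios of 3 more genes lay on the other side of 0 from those of the control libraries. They were 0.70 (0.24 to 1.17) for Ptgs2, -0.80 (-1.01 to -0.59) for Ltc4s and -0.35 (-0.39 to -0.31) for Alox5ap. For Alox5ap this depended on the scaling, since its control ratio was 0.09 with TMM and -0.0009 with total counts. The share of all genes on the other side of 0 was not taken.

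**Figure D2:**
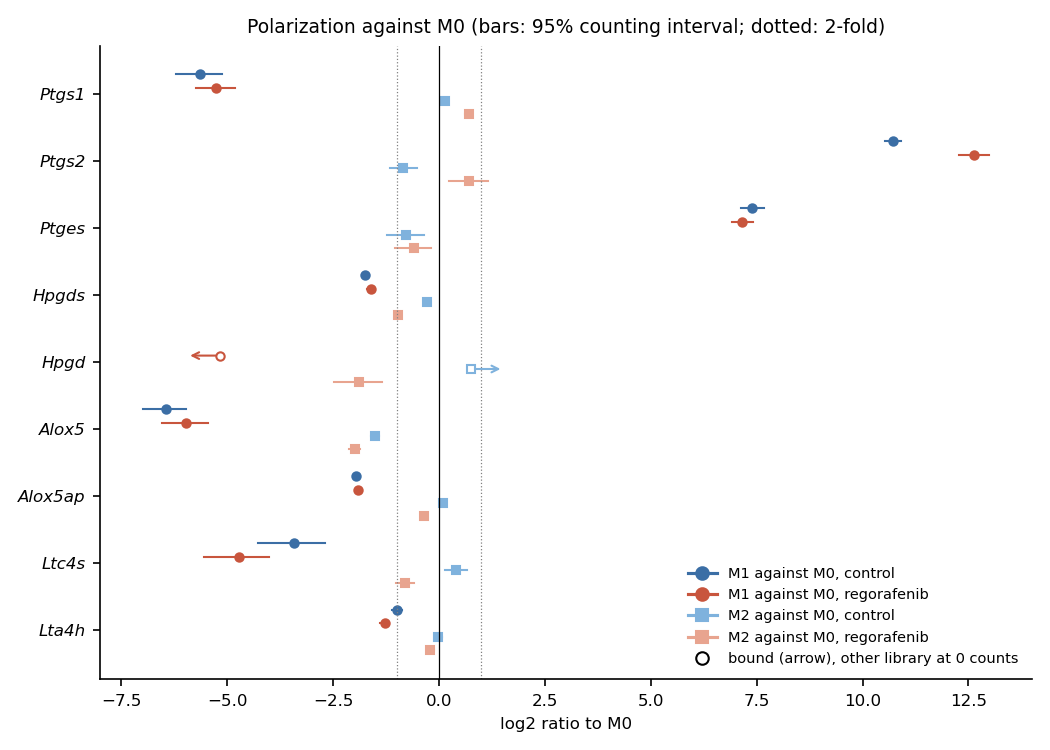
Log2 ratio of M1 (circles) and M2 (squares) to M0 for 9 genes, in control (blue) and regorafenib (red) libraries, with bars for the 95% counting interval, dotted lines at 2-fold and open symbols with arrows for bounds against 3 counts. Ptgs2 (10.72 and 12.63) and Ptges (7.39 and 7.16) lie far to the right in M1, while Alox5 (-6.45 and -5.97) and Ptgs1 (-5.63 and -5.26) lie far to the left.

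The second question is how the libraries with regorafenib differed from their controls in each state. In M0, where the inhibitor was given without a polarizing agent, 3 of the 9 genes with enough counts were called: Hpgd and Ltc4s were higher and Ptgs2 was lower. The background was 8.27% of 13964 genes called higher and 10.2% called lower. In the same pair, without and with regorafenib, Mpo had 2479 and 5124 counts and S100a8 had 123 and 91. The other neutrophil markers had at most 2 counts, and the fibroblast markers summed to 1.69 and 4.49 CPM. Their part in the calls was not tested. The median log2 ratio of the 9 was 0.24, and that of all genes 0.005. In M1, 0 of 8 genes were called, against 1.27% of 13440 genes called higher and 2.47% called lower, with a median of 0.11 (all genes -0.02). In M2, 1 of 9 genes was called higher and 0 lower, against 5.23% and 4.11% of 13813 genes, with a median of 0.20 (all genes -0.03).

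Hpgd, which inactivates prostaglandins, had the largest ratio of the set. The 148 counts in M0 with regorafenib were at least 46.0-fold above the control library, against 3 counts in the latter. The 34 counts in M2 with regorafenib were 7.40-fold above the 6 of its control, a log2 ratio of 2.89 (1.62 to 4.43). With 1 CPM added to both values this ratio was 0.93 and the call ended. M1 held 1 and 0 counts, too few for a ratio. Per length, the highest of these libraries reached 2.67 RPKM. The annotated gene Gm45540, on the same strand within Hpgd, had 0 to 3 counts.

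Ptgs2 in M0 was 3.33-fold lower with regorafenib, 69 counts against 214 (log2 -1.73, -2.15 to -1.34). In M1, where the gene had most of its counts, the log2 ratio was 0.17 (0.17 to 0.18), and in M2 it was -0.20 (-0.59 to 0.19). The level with the inhibitor in M0, 0.457 RPKM, was the lowest of the 6 libraries. Ptgs1 had log2 ratios of 0.24 (0.15 to 0.33) in M0, 0.62 (-0.09 to 1.34) in M1 and 0.81 (0.73 to 0.89) in M2. The last is 1.76-fold, within the 2-fold limit. Ptges had 0.14 (-0.23 to 0.52), -0.08 (-0.12 to -0.05) and 0.33 (-0.15 to 0.80) in M0, M1 and M2.

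Hpgds was on the higher side with regorafenib in M0 (log2 0.25, 0.20 to 0.30) and M1 (0.37, 0.27 to 0.48) and on the lower side in M2 (-0.43, -0.49 to -0.36). None of the 3 ratios reached 2-fold. Ltc4s was 2.64-fold higher in M0, 580 counts against 205 (log2 1.40, 1.17 to 1.64). Its ratios were 0.10 (-0.99 to 1.20) in M1 and 0.20 (-0.03 to 0.44) in M2. Lta4h, which competes with Ltc4s for the same substrate, had 0.41 (0.33 to 0.49), 0.11 (-0.02 to 0.24) and 0.22 (0.14 to 0.30).

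The upstream pair of the leukotriene branch lay on the lower side in M0 and M2. Alox5 had log2 ratios of -0.47 (-0.55 to -0.40) in M0 and -0.95 (-1.09 to -0.80) in M2. In M1, with 33 and 31 counts, it had 0.01 (-0.75 to 0.76), an interval that allows a difference of over 1.5-fold either way. Alox5ap had -0.40 (-0.44 to -0.37), -0.35 (-0.43 to -0.27) and -0.84 (-0.88 to -0.80) in the 3 states, with an interval below 0 in each.

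**Figure D3:**
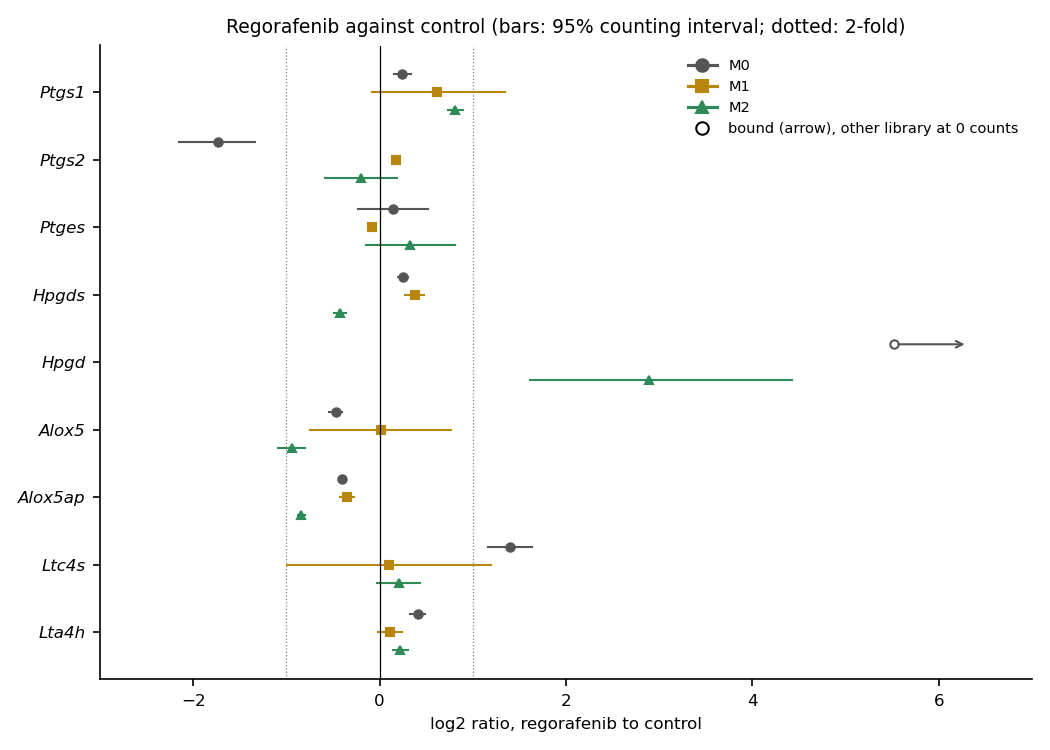
Log2 ratio of regorafenib to control for 9 genes in M0 (circles), M1 (squares) and M2 (triangles), with bars for the 95% counting interval, dotted lines at 2-fold and an open symbol with an arrow for the bound of Hpgd in M0. Past the dotted lines are Hpgd in M0 and M2 (2.89), Ltc4s in M0 (1.40) and Ptgs2 in M0 (-1.73), and all the M1 ratios shown lie between them.

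A change common to the 3 states was the one comparison with more than 1 library a side. For it, edgeR's quasi-likelihood fit had state as a block, so that its residual spread is how unlike the 3 states were in their response. Of 13365 genes tested, 0.0% (0) passed a Benjamini-Hochberg adjusted p of 0.05, with 1519 at an unadjusted p under 0.05. DESeq2 called 296 genes, and edgeR without the M1 libraries called 386, while leaving out M0 or M2 left 0. Of the 10 genes, 8 were tested. The smallest adjusted p-values by this edgeR fit were 0.400 for Ptgs1 (log2 0.56) and 0.400 for Alox5ap (log2 -0.52). The ratios of both, and of Ltc4s and Lta4h, had the same sign in 3 of 3 states. Among these, only Alox5ap had an interval that excluded 0 in each state. The Ltc4s ratio in M1 rested on 16 counts in both libraries. The share of all genes with the same sign throughout was not taken. Alox5 followed with an adjusted p of 0.429 (log2 -0.53) and Ltc4s with 0.450 (log2 0.67, which was 0.19 without the M0 libraries). Lta4h (0.26, adjusted p 0.451), Ptgs2 (-0.51, 0.559), Ptges (0.12, 0.701) and Hpgds (0.08, 0.835) had larger values by the same edgeR test. By edgeR without the M1 libraries, the adjusted p was 0.0791 for Alox5, 0.0917 for Alox5ap and 0.132 for Ptgs1, none under 0.05. Over all the alternatives by edgeR and DESeq2, the adjusted p of these 3 genes ran from 0.0791 to 1.0. Hpgd and Alox15 were removed by the filter on low counts. Without that filter Hpgd had an adjusted p of 0.0190 by edgeR. Its other values were 0.716 by DESeq2 and 0.0771 by edgeR without the M1 libraries.

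The other genes of the pathway were described from a list of 58, of which 29 had at least 100 counts in a library, 21 stayed under 10 counts everywhere and 5 were at 0 everywhere. In M1 against M0, 9 of 37 with enough counts were called higher and 11 lower, against 16.7% and 18.7% of all genes tested. In M2 against M0, 4 of 35 were called higher and 4 lower (all genes 3.8% and 6.98%). Regorafenib gave 6 higher and 4 lower of 36 in M0 (all genes 8.27% and 10.2%). In M1 it gave 0 higher and 2 lower of 33 (1.27% and 2.47%), and in M2 3 higher and 3 lower of 36 (5.23% and 4.11%). Shares near those of all genes are no result about the list. Those with at least 100 counts and a call in 1 or more of the 5 comparisons were 19 genes, named below.

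Of the genes of arachidonate release, 10 had enough counts in M0 and M2, and regorafenib gave 3 higher and 2 lower in M0 (all genes 8.27% and 10.2%) and 2 higher and 1 lower in M2 (5.23% and 4.11%). Pla2g4a, the cytosolic phospholipase A2 that releases arachidonic acid, had 3510 and 664 counts in M0, 3823 and 1315 in M2, and 5051 and 4228 in M1. It was lower with regorafenib in M0 (log2 -2.50, -2.63 to -2.38) and M2 (-1.16, -1.25 to -1.06), and had -0.16 in M1. Pla2g7, the platelet-activating factor acetylhydrolase, had 2141 and 11881 counts in M0, 1099 and 3100 in M2, and 32723 and 16093 in M1. Regorafenib was on the higher side in M0 (2.37, 2.30 to 2.44) and M2 (1.88, 1.78 to 1.98) and on the lower side in M1 (-0.92, -0.95 to -0.90), within the 2-fold limit. M1 control was above all other libraries (4.18 against M0, 4.12 to 4.25). M2 control was below M0 for Pla2g7 (-1.21, -1.32 to -1.11). Pla2g15, the lysosomal phospholipase A2, had 2226 and 5347 counts in M0, 2835 and 4791 in M2, and 819 and 939 in M1. Its regorafenib ratios were 1.16 (1.09 to 1.23) in M0 and 1.14 (1.07 to 1.21) in M2, both called higher, and M1 was lower than M0 (-1.19, -1.31 to -1.08). Pla2g16 was higher in M1 than in M0 (2.22, 2.04 to 2.399), and Daglb, a diacylglycerol lipase, was lower (-2.80, -2.999 to -2.60).

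Of the other prostanoid synthases, 0 of 6 with enough counts were called with regorafenib in any state, where 1.27% to 10.2% of all genes were called in a direction. In M1 against M0, 3 of 6 were called lower, against 18.7% of all genes. These were Tbxas1, the thromboxane synthase (-1.02, -1.12 to -0.91, and -0.97 and -0.88, not called, with DESeq2 size factors and upper quartile scaling), Akr1b3 (-1.23, -1.31 to -1.15) and Fam213b, a prostamide and prostaglandin F synthase (-1.44, -1.75 to -1.14). Tbxas1 had 2683 and 3494 counts in M0, 6309 and 6994 in M2, and 1116 and 919 in M1, with M2 the highest state. The 5 other lipoxygenases had no member with 10 counts in these pairs.

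Among genes of breakdown and leukotriene processing, Ptgr1, the prostaglandin reductase, had 2373 and 1990 counts in M0, 2705 and 1748 in M2, and 2912 and 1349 in M1. It was 1 of the 2 pathway genes called lower with regorafenib in M1 (-1.01, -1.10 to -0.92), and the call ended at -0.97 with total counts. The dipeptidase Dpep2 was lower in M1 than in M0 (-2.32, -2.81 to -1.85), and Cyp4f13 was higher (1.06, 0.85 to 1.27, but 0.62 and not called with total counts). Dpep2 has 2 gene IDs, of which the one with more counts was used. The exporters Abcc1, which carries leukotriene C4, and Abcc4, which carries prostaglandin E2, were both higher in M1 (1.63, 1.59 to 1.67, and 1.34, 1.25 to 1.42). With total counts Abcc4 was at 0.90 and not called.

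Of the prostanoid receptors, 5 of 9 had enough counts. Ptger2, a prostaglandin E2 receptor, had 138 and 531 counts in M0, 732 and 882 in M2, and 222 and 140 in M1. It was higher with regorafenib in M0 (1.84, 1.57 to 2.12) and higher in M2 than in M0 (2.16, 1.89 to 2.43). Ptger3, another receptor of the same ligand, had 103 and 336 counts in M0, 90 and 118 in M2, and 11 and 10 in M1, and was likewise higher with regorafenib in M0 (1.60, 1.28 to 1.94). It was lower in M1 than in M0 (-2.98, -4.02 to -2.08). The prostacyclin receptor Ptgir was higher in M2 than in M0 (1.16, 1.03 to 1.29), with 667 and 367 counts in M0, 1776 and 1379 in M2, and 388 and 352 in M1.

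Of 8 receptors of leukotrienes and other lipid mediators, 6 had enough counts in M1 against M0, and 3 were called higher and 0 lower (all genes 16.7% and 18.7%). The leukotriene B4 receptor Ltb4r1, named after its values were seen since it was the other pathway gene called lower with regorafenib in M1, had 29 and 15 counts in M0, 98 and 34 in M2, and 28 and 5 in M1. It was called lower with regorafenib in each state, with log2 ratios of -1.05 (-2.06 to -0.11) in M0, -2.39 (-4.11 to -0.99) in M1 and -1.14 (-1.75 to -0.57) in M2. The call in M0 ended at -0.97 with upper quartile scaling. The formyl peptide and lipoxin receptor Fpr2 had 39 and 56 counts in M0, 5 and 11 in M2, and 20337 and 16261 in M1. It was 620-fold higher in M1 than in M0 (log2 9.28, 8.82 to 9.77) and lower in M2 (-3.21, -4.91 to -1.87). Gpr18 had 3 and 21 counts in M0, 3 and 15 in M2, and 1168 and 1363 in M1, with a log2 ratio of 8.85 (7.30 to 11.13) in M1 against M0. Regorafenib gave Gpr18 2.71 (0.96 to 5.09) in M0 and 2.71 (0.88 to 5.14) in M2, both from 3 counts in the control library. Cmklr1 was higher than M0 in M1 (3.02, 2.69 to 3.36) and in M2 (1.14, 0.78 to 1.52).

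**Figure D4:**
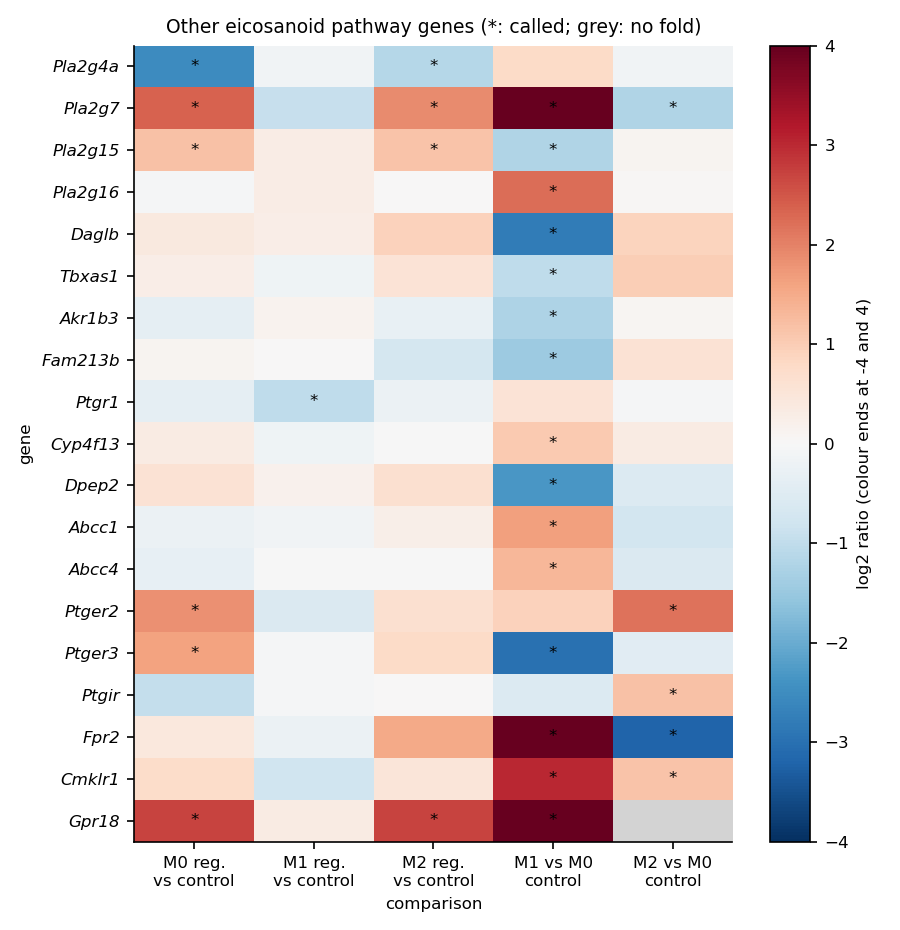
Log2 ratios of the 19 other pathway genes (rows) in 5 comparisons (columns), red for higher and blue for lower, with colours ending at -4 and 4, stars for called genes and grey where no fold is given. The M1 column holds the strongest colours (Fpr2 9.28, Gpr18 8.85, Pla2g7 4.18), and Pla2g4a in M0 with regorafenib (-2.50) is the darkest blue of the regorafenib columns.

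The genes most like each member were taken by Pearson's r of log2(CPM + 1) over the 6 libraries, among the 11308 genes that reached 100 counts in some library. These are descriptions without a p, since the 6 points come in pairs from the same state. The measure takes no account of the size of a difference. In M0 and M1 control, Ptgs2 had 214 and 302844 counts, and its nearest gene Sppl2a had 6294 and 20318. Ptges was most like Mllt11 (0.9998) and Lrrc63 (0.9996), and Ptgs2 most like Sppl2a (0.9996) and Upp1 (0.9995), and 275 and 239 genes had r over 0.99 with them. Lta4h was most like Sesn1 (0.9998) and Arl11 (0.999), and Ptgs1 most like Pros1 and Rpl10a-ps1 (0.999 each). Ltc4s was most like Rttn (0.999) and Wwc2 (0.998), and Alox5ap most like Suds3 (0.998) and Coprs (0.997). Alox5 was most like Tgfbr2 and Poc1b (0.997 each), and Hpgds most like Mvb12b (0.997) and Pot1a (0.995). Hpgd was most like Fn3k (0.997) and Supt7l (0.995). Fn3k had 2 and 122 counts in M0, 2 and 28 in M2, and 0 and 0 in M1, beside the 0 and 148, 6 and 34, and 1 and 0 of Hpgd.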

How the data were processed

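RNA of 6 BMDM libraries (TruSeq Stranded mRNA, pairs of reads of 100 bases) was measured, with 1 library per condition. Read counts per gene were deposited by the authors as whole numbers, not normalized. They had trimmed the reads with cutadapt 2.4, mapped them to GRCm38 with STAR 2.7.2a and counted them on Gencode M19. Which strand column was taken is not given in the sources used here, so reads from antisense partners may be included. Symbols and positions came from Gencode M21: 53229 IDs matched with their version, 1180 without it and 37 not at all.

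Counts were scaled with TMM over the 6 libraries (edgeR 4.0.16, R 4.3.3, factors 0.820 to 1.12). Log2 ratios and their 95% conditional exact binomial intervals were computed with Python 3.11.15 (scipy 1.17.1), with 0 replaced by 0.5. A count of 0 was taken against a floor of 3 counts as a bound, and pairs with 3 or fewer counts on both sides got no fold. Intervals and floors cover counting error only. Called genes had a ratio of at least 2-fold, an interval without 0 and at least 10 counts in a library of the pair. The study's NOISeq without replicates was not used, since it rests on simulated replicates. The test across the 3 states used edgeR after filterByExpr with Benjamini-Hochberg adjustment at 0.05, and DESeq2 1.42.0 as an alternative. No source used here says that the libraries came from separate animals, and p-values measure only the spread between these libraries. Methods were tested on simulated data. Other alternatives were the scaling, the count minimum, the fold and leaving out each state.

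All 10 members are reported. Of the 58 other pathway genes, those reaching 100 counts and called in 1 or more of 5 comparisons are named, and for each member with at least 100 counts the 2 genes with the highest correlation. The members and lists were chosen with earlier results of these data known.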

Additional observations from a re-analysis of the deposited data

Results flagged for a closer look

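In 2 of the 10 genes, the regorafenib ratio was above 0 in 1 state and below 0 in another, each with a counting interval that excluded 0. The same held for 22.5% of 13746 genes with enough counts in a pair of states, and 2 of the 9 genes of the set that had them. A share this near that of all genes is no result about the set. The regorafenib log2 ratio of Hpgds in M0 minus that in M2 was 0.68 (95% interval 0.59 to 0.76), and the ratio in M1 minus that in M2 was 0.80 (0.68 to 0.92). For Ptgs2, the ratio in M0 minus that in M1 was -1.91 (-2.30 to -1.52). The differences were not tested, since each state holds 1 library a side, and the intervals cover counting error only.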

How the results depend on the processing

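Each condition had 1 library, so no ratio has a replicate check, and Hpgd and Alox15 were limited by their counts. The 3 calls with regorafenib in M0 came to 1 (Hpgd) at 4-fold. In M2 the 1 call with regorafenib came to 0 with 1 CPM added, 0 with at least 100 counts and 4 at 1.5-fold (Hpgd and Ptgs1 higher, Alox5 and Alox5ap lower). M2 against M0 without regorafenib gave 3 at 1.5-fold (Ptgs2, Ptges and Alox5, all lower) and 0 at 4-fold. Across the 3 states, DESeq2 called 296 genes (136 higher, 160 lower) and edgeR without a filter 333 (155 higher, 178 lower), and leaving out 1 state gave 0 to 386. Without the state block the log2 ratio turned to 0.18 for Ptgs2 and -0.074 for Ptges, and leaving out 1 state gave -0.064 to 0.32 for Hpgds, -0.94 to 0.024 for Ptgs2, 0.19 to 0.91 for Ltc4s, -0.68 to -0.28 for Alox5 and 0.030 to 0.25 for Ptges. The cause was not tested, other than the construction of each setting (another limit, or fewer libraries). Scaling by total counts moved the median of all genes by -0.44 in M1 against M0 and by -0.41 with regorafenib, and upper quartile scaling moved the former by 0.14. Near 0, Alox5 with regorafenib in M1 turned from 0.01 to -0.01 and Lta4h in M2 against M0 from -0.02 to 0.03 with upper quartile scaling, and Alox5ap in M2 against M0 from 0.09 to -0.00 with total counts. Of the ratios of single genes under the alternatives, 8 of 292 had another sign, which are the 5 across the states and the 3 near 0 given above. The labels give no replicate numbers, and the only block fitted was the state.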
